A study of Mus musculus with 13 samples.

Results

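R-loops at 10 genes of the Notch pathway were examined in N2a cells, a mouse neuroblastoma line, by DNA/RNA immunoprecipitation and sequencing (DRIP-seq). The genes were *Hes7*, *Hes1*, *Hes5*, *Hes6*, *Hey1*, *Notch1*, *Dll1*, *Dll3*, *Jag2* and *Lfng*, 10 of the 37310 genes in the GENCODE vM1 annotation of mouse genome build mm9. *Hes7* was chosen by its measured peak calls, because peaks covered its start in libraries of some groups and not in others, and the other 9 genes were taken along as members of the same pathway. The covered bases of *Hes7* in the 3 groups are therefore given as a description, with no test.

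Cells had been transfected with a scramble siRNA (siScramble) or with siRNA against DDX1 (siDDX1), a putative RNA helicase, or EXOSC3 (siEXOSC3), a subunit of the RNA exosome, which degrades and processes RNA. An siRNA lowers its target without removing it, and all groups came from the same cell line. Each group held 3 untreated libraries, and 1 further library per group came from DNA first treated with RNase H, an enzyme that degrades the RNA strand of hybrids, before pulldown with the S9.6 antibody. Genomic DNA had been cut with BsrGI, EcoRI, HindIII, SspI and XbaI. The pulldown brings down whole cut fragments, so a hybrid can give signal away from its own position. Peaks were also called after RNase H, so a peak alone does not show a hybrid.

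The treatment in the sample titles and the treatment in the peak names differed in 12 of 12 lists, always by the same rotation, and no source at hand decides between them. Groups below are those of the titles. By the peak names, libraries labelled siScramble would be siDDX1, those labelled siDDX1 would be siEXOSC3, and those labelled siEXOSC3 would be siScramble. Tests across the 3 groups and tests of RNase H have the same values under both readings, but every direction between groups depends on the reading.

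Notch receptors are cleaved after contact with a ligand on a neighbouring cell, and the released intracellular part joins RBPJ at target promoters. Hes and Hey genes encode basic helix-loop-helix repressors that are classic targets of this signal. Hes7 is best known from the presomitic mesoderm, where it represses its own promoter and oscillates with the segmentation clock, and Lfng and Dll3 belong to the same clock. R-loops, in which RNA pairs with 1 DNA strand and leaves the other unpaired, often form over gene starts rich in G on the non-template strand.

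The 9 untreated libraries held 23882 to 42571 peaks and the RNase H libraries 3811 to 8034. The number of DNA fragments stacked at each peak's summit (its pileup) was recovered as a whole number from the deposited fold enrichment and −log10 p-value. The local genome background came to 0.54 to 1.29 fragments in the untreated libraries and 1.13 to 1.59 in the RNase H libraries. The library labelled siDDX1 1 was the untreated one with the background of 1.29, and the next highest was 0.71. The lowest pileup of any called peak was 5 to 7 fragments in the untreated libraries and 8 to 9 in the RNase H libraries. Of 11 lineage markers of sympathoadrenal neuroblastoma cells, 8 had a peak in at least 1 untreated library, and *Hand2*, *Gata2* and *Chga* were among those with one in all 9. Of 8 markers of other lineages, 1 had a peak, *Gfap*, in 4 libraries. *Th* and *Dbh*, which define noradrenergic cells, had none. These peaks are R-loop calls, not expression.

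*Hes7* lies on chr11:68933906-68937557, plus strand (ENSMUSG00000023781.2), with 4 exons. Its peaks in all libraries fell on 1 restriction fragment, chr11:68933543-68938419, which is 4877 bases long and has an SspI site at either end and no site of the 5 enzymes inside. A peak began exactly at the left cut in 4 libraries, and a peak ended exactly at the right cut in 4. The cut sites are shown because they set the outer limits of the *Hes7* signal. Each is given on the plus strand of mm9, at chr11:68933528-68933557 and chr11:68938405-68938434, with the recognition site in capitals.
Hes7 left edge: ggagaagattatAATATTcagcctggaggc
Hes7 right edge: ataagattttcaAATATTgtagtaaatgaa

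The gene start lies 363 bases inside the fragment. The 250 bases upstream of it, chr11:68933656-68933905, are shown because peaks covered them in 4 libraries and in no library labelled siScramble. Capitals mark the motifs searched on both strands. These were the RBPJ core TGGGAA, the E-box CACGTG and the N-box CACNAG, to which Hes repressors are known to bind. No motif overlapped another in this window.
Hes7 upstream: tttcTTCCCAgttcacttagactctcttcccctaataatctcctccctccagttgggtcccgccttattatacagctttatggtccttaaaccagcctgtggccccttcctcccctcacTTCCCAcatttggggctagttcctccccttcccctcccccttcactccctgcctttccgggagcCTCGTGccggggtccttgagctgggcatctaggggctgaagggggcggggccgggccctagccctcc
The RBPJ core was found 2 times, at −246 to −241 and −131 to −126 from the gene start, and the N-box once, at −67 to −62, all on the opposite strand, so the print shows their reverse complements. The E-box was not among these letters. Of 22375 protein-coding genes with a complete window, 21% held the RBPJ core, 35.7% the N-box and 6.52% the E-box in the same 250 bases.

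No base of the *Hes7* fragment was covered by a peak in the libraries labelled siScramble 1, 2 and 3. The libraries labelled siDDX1 had 3382, 297 and 1410 covered bases within the gene and 1 kb on both sides. Those labelled siEXOSC3 had 4009, 4877 and 4633. All 3 siEXOSC3 libraries were above all 3 siDDX1 libraries, which were above all 3 siScramble libraries. The means were 0, 1696 ± 1562 and 4506 ± 448 bases (SD, n = 3 each). As shares of the fragment, the siDDX1 libraries had 69.3%, 6.09% and 28.9% covered and the siEXOSC3 libraries 82.2%, 100% and 95%. The siDDX1 values spanned nearly the whole range between the other groups, whereas the siEXOSC3 values lay close together. Without the library labelled siDDX1 1, the siDDX1 mean was 853.5 bases. By the peak names, the same values read as no call in siDDX1, an intermediate cover in siEXOSC3 and the widest cover in siScramble.

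**Figure D1:**
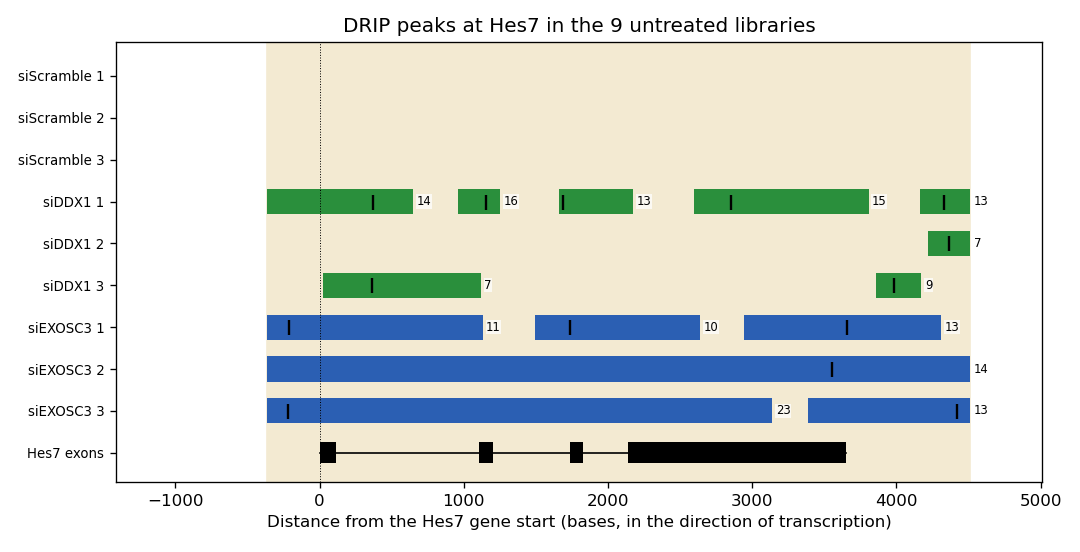
Peaks at *Hes7* in each of the 9 untreated libraries (rows, named by title), placed by distance in bases from the gene start. Bars are peaks, black ticks their summits, numbers the fragments at the summit, the shaded band the uncut 4877-base SspI fragment and black boxes the exons. The 3 siScramble rows are empty, and the siEXOSC3 2 peak fills the band from cut to cut.

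Depth behind the *Hes7* peaks was low. The library labelled siEXOSC3 3 had the strongest peak, with 23 fragments at a summit at −222 from the gene start, a fold enrichment of 15.4 and a place at percentile 93.6 of its own list by fold. Its second peak had 13 fragments. The 3 peaks of siEXOSC3 1 had 11, 10 and 13 fragments, and the first of them had its summit at −215, 7 bases from that of siEXOSC3 3. The single peak of siEXOSC3 2 had 14 fragments and a summit at +3551, in the 3′ part of exon 4. The strongest peak of siEXOSC3 1 by fold had its summit at +3660 and the second peak of siEXOSC3 3 at +4424. All 3 siEXOSC3 libraries thus had a summit near or past the gene end, and 2 of them had a further one upstream of the gene start.

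The 5 peaks of the library labelled siDDX1 1 had 13 to 16 fragments over local backgrounds of 1.29 to 2.58 fragments, and the strongest by fold (6.98) lay in exon 4. The 2 peaks of siDDX1 3 had 7 and 9 fragments. The first began 25 bases past the gene start and had its summit at +366, in intron 1, where siDDX1 1 also had a summit, at +369. The only peak of siDDX1 2 had 7 fragments and spanned chr11:68938123-68938419, downstream of the gene end. With no flank around the gene bounds, siDDX1 2 therefore had 0 covered bases at *Hes7*, and the siDDX1 and siScramble groups overlapped. The calls in siDDX1 2 and 3 stood within a few fragments of the lowest pileup called in those lists, 5 in each, and the lowest in the siScramble lists was 5 or 6. How far the pileup at *Hes7* in the siScramble libraries lay below the calling level was not tested, since the lists hold called peaks only.

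Along the fragment, 888 bases were covered in 5 libraries, 2441 in 4, 1308 in 3 and 240 in 2, and no base was covered in 6. The 363 bases upstream of the gene start and exon 3 were covered in full in the 3 siEXOSC3 libraries and in siDDX1 1. Most of exon 1 was covered in siDDX1 3 as well, with 87 of 112 bases. The part downstream of the gene end was the only part of the fragment with covered bases in all 6 libraries that had a peak. It was covered over 506, 297 and 316 bases in the siDDX1 libraries and 658, 862 and 862 in the siEXOSC3 libraries.

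The *Hes7* start stood apart from most gene starts in fragment size. Its fragment was longer than those holding the start of 98% of 22375 protein-coding genes, for which the median was 1532 bases. Fragment length and peak calls moved together over all genes: a peak covered the gene start in at least 1 untreated library for 6.2% of the 5598 genes with the shortest start fragments (up to 928 bases) and for 43% of the 5593 genes with the longest (2313 bases or more). Among the 443 genes with a start fragment of at least 4877 bases, 52.6% had a covered start in at least 1 library and 43.3% in 4 or more, as *Hes7* did. A longer fragment carries more sequence that can hold a hybrid, and the part of fragment length in the *Hes7* calls was not tested. Other features of long fragments, such as base composition, were not separated from length. Length is the same in every group, and its part in the differences between groups was not tested either. In the first 500 bases of the gene, GC skew, the excess of G over C on the non-template strand, was 0.20, above 91.3% of genes, and GC content was 52.8%, above 35.2% of genes.

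The antisense lincRNA gene *9130213A22Rik* (chr11:68933556-68936091, minus strand) overlaps the *Hes7* start and exons 1 to 3. Of exon 4, the longest with 1513 bases (chr11:68936045-68937557), it overlaps only the beginning. DRIP-seq as done here gives no strand, so hybrids made by either transcript cannot be told apart. With its own 1 kb flanks it had 0, 0 and 0 covered bases in the siScramble libraries, 2410, 0 and 1094 in siDDX1 and 2885, 3549 and 3504 in siEXOSC3.

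The neighbourhood of *Hes7* had peaks in every untreated library. The nearest upstream peak ended 8293 bases away in all 9, at *Per1*, a core gene of the circadian clock. *Per1* was covered over 8295, 10524 and 9692 bases in siScramble, 11661, 8060 and 9517 in siDDX1 and 12615, 11696 and 12790 in siEXOSC3. *Vamp2*, which encodes a synaptic vesicle protein, was covered over 1143 to 3552 bases in the 9 libraries. The siScramble libraries thus had called peaks on both genes upstream of *Hes7* while they had none on *Hes7*. At *Per1*, too, all siEXOSC3 libraries were above all siScramble libraries, as for 6.11% of all genes tested, whereas at *Vamp2* these groups overlapped. Downstream, the nearest peak lay 78.4 to 90.7 kb away.

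*Hes6* encodes a Hes protein that promotes neuronal differentiation rather than repressing it. Its bounds are chr1:93308060-93310615 on the minus strand, where the outermost start belongs to a non-coding transcript and the coding transcript starts at 93309799. The siScramble libraries had 403, 1217 and 1290 covered bases, the siDDX1 libraries 2273, 0 and 937, and the siEXOSC3 libraries 2393, 2608 and 3422. All 3 siEXOSC3 values were above every other library, and siDDX1 spread over a wider range than siScramble. The means were 970 ± 492, 1070 ± 1142 and 2808 ± 543 bases (SD, n = 3 each). Across the 3 groups the exact permutation test of the F statistic gave p = 0.075, and 1 after Benjamini-Hochberg adjustment over the 13647 genes tested. The siEXOSC3 mean was 1838 bases above siScramble, and the two-sided exact permutation p of 0.1 is the smallest that 3 against 3 libraries can give. Without the library labelled siDDX1 1 the exact permutation p across groups was 0.0179, without siDDX1 2 it was 0.0393, and over equal numbers of peaks per library it was 0.0286. It was 0.139 without siDDX1 3, 0.125 without siEXOSC3 2 and 0.189 without siEXOSC3 3. No gene passed after adjustment under any of these settings.

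*Hes6* peaks, too, were bounded by cuts. A HindIII fragment, chr1:93307518-93310520, held most of the covered bases, and a peak started at its left cut in 5 libraries. In 5 libraries, siScramble 2, siDDX1 1 and the 3 siEXOSC3 libraries, a peak had its summit on the same base, +96 from the outermost start and −720 from the coding start, next to the right cut. The cuts are shown because the shared summit and the shared edge lie on them. They are read on the plus strand of mm9, at chr1:93307505-93307534 and chr1:93310504-93310533, with the HindIII site in capitals.
Hes6 left edge: ccggaggacctgAAGCTTttgagaaagatg
Hes6 right edge: ctgcccccagtcAAGCTTctccttccttgt
At that shared summit the pileups were 8 fragments in siScramble 2, 11 in siDDX1 1 and 26, 12 and 20 in siEXOSC3 1, 2 and 3. The fold enrichment of 16.8 in siEXOSC3 1 was the highest of all 69 peaks at the 10 genes. In siEXOSC3 1, siEXOSC3 3 and siDDX1 1 the peak ran on across the cut, and in siScramble 2 and siEXOSC3 2 it ended there. Of the 3003 bases between the cuts, siScramble had 13.4%, 28.2% and 43% covered, siDDX1 64.1%, 0% and 31.2%, and siEXOSC3 66.5%, 86.8% and 91.7%. GC skew in the first 500 bases from the outermost start was 0.29, above 98% of protein-coding genes.

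**Figure D2:**
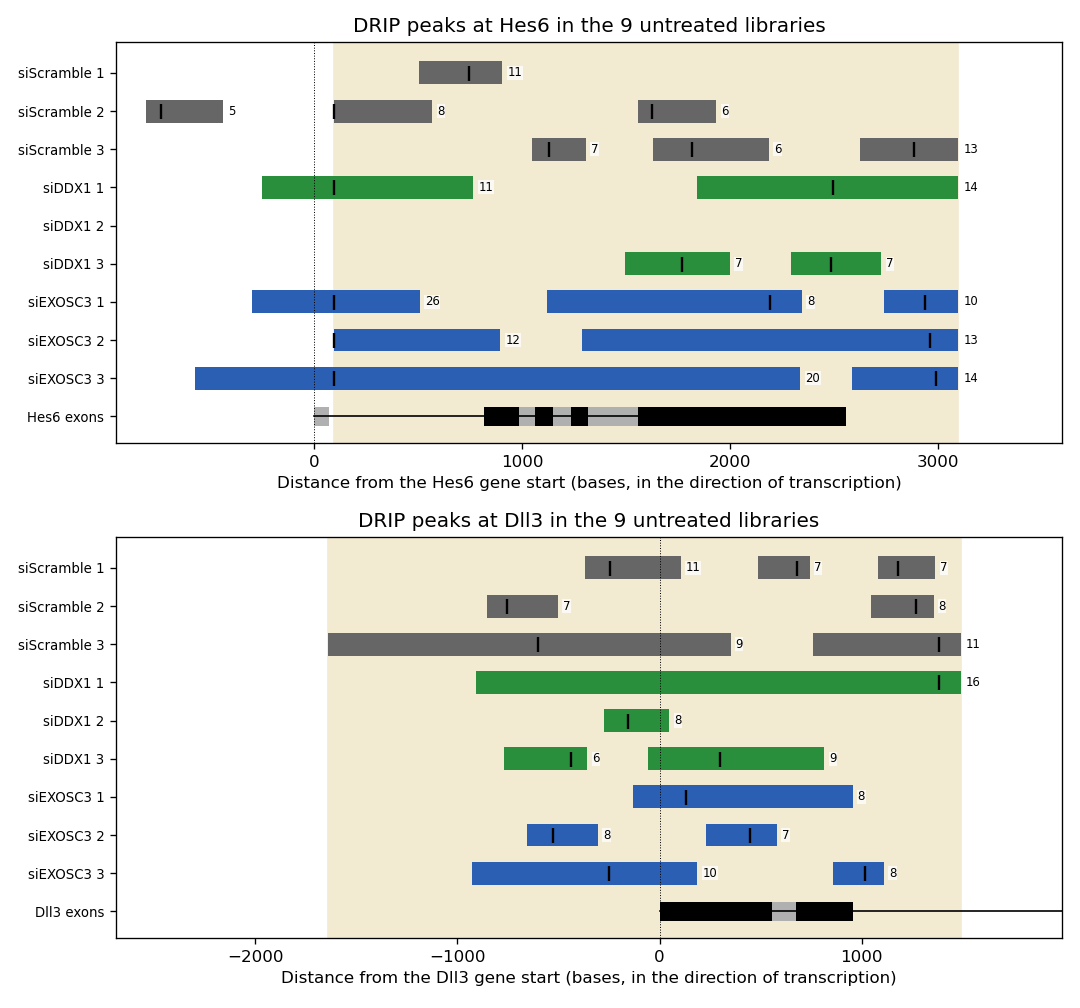
Peaks at *Hes6* (top) and *Dll3* (bottom) in the 9 untreated libraries, by distance in bases from the outermost annotated gene start; bars, ticks, numbers and boxes as for *Hes7*, with exons of non-coding transcripts in grey. The shaded bands are the uncut HindIII and XbaI fragments. At *Hes6* 5 libraries share a summit at +96 on the edge of the band, whereas *Dll3* summits are scattered.

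*Hes1* and *Hes5*, the main Notch effectors that keep neural progenitors undifferentiated, each had a single peak in 1 of 9 libraries. *Hes1* (chr16:30064470-30067882, plus strand) had 235 covered bases within its 1 kb flank in siScramble 2, from a peak of 6 fragments that lay downstream of the gene, and 0 in the other 8 libraries. *Hes5* (chr4:154335032-154336480, plus strand) had 508 covered bases in siEXOSC3 3, also downstream of the gene and from 6 fragments, and 0 in the others. Both results depend on the flank. With 5 kb on both sides, *Hes1* had 1619, 3495 and 3585 covered bases in siScramble, 3585, 1430 and 1893 in siDDX1 and 3585, 2837 and 3585 in siEXOSC3. With the same flank, *Hes5* had 1522, 2882 and 3144, then 3442, 1546 and 1350, then 2426, 1395 and 2169. Both genes thus had peaks within 5 kb in all 9 untreated libraries, with groups that overlapped. With 1 library of 9 covered, as in the 1 kb bounds, the exact permutation p across groups is 1 for any gene. *Hey1*, a related repressor (chr3:8663362-8667039, minus strand), had no peak in any library within 1 kb, and 275 covered bases in siScramble 2 within 5 kb. Peaks within the 1 kb bounds of the 5 Hes and Hey genes thus came to 14 at *Hes7*, 18 at *Hes6*, 1 at *Hes1*, 1 at *Hes5* and 0 at *Hey1*.

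*Dll3* encodes a divergent ligand that acts inside its own cell, mostly against Notch signalling, and was the only one of the 10 genes with a peak in all 9 untreated libraries. It lies on chr7:29076673-29087257, minus strand. It had 1010, 662 and 2082 covered bases in siScramble, 2402, 322 and 1283 in siDDX1 and 1088, 700 and 1366 in siEXOSC3. The groups overlapped throughout, with an exact permutation p of 0.925 across groups. Because *Dll3* was called in all 9 full lists, the rank of its strongest peak could be compared too. The calls depended on the threshold: at a −log10 q of at least 5, siScramble 2, siDDX1 1 and siDDX1 2 had 0 covered bases. It stood at percentiles 67.1, 32.4 and 60.9 of the siScramble lists, 1.26, 26 and 64.7 of the siDDX1 lists and 47.3, 48.3 and 58.7 of the siEXOSC3 lists. The percentile of 1.26 in siDDX1 1 belongs to a peak of 16 fragments over a local background of 4.47, the highest local background of the 69 peaks. Across groups the exact permutation p was 0.429, and 0.863 after adjustment over the 6763 genes with a peak in all 9 libraries, of which 6.34% had an unadjusted p below 0.05.

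Peaks covered the outermost *Dll3* start in 7 of 9 libraries, the most of the 10 genes, and these peaks had 8 to 16 fragments. All *Dll3* peaks lay on an XbaI fragment of 3132 bases, chr7:29085766-29088897, longer than the start fragments of 88.7% of protein-coding genes. GC skew in the first 500 bases was −0.20, below all but 3.27% of genes and opposite in sign to *Hes7* and *Hes6*. The cuts are shown since 2 libraries, siScramble 3 and siDDX1 1, had a peak edge on the left one and siScramble 3 on the right. Capitals mark the XbaI site, on the plus strand of mm9 at chr7:29085753-29085782 and chr7:29088881-29088910.
Dll3 left edge: ccaaagaagagaTCTAGAataaagacaaag
Dll3 right edge: tttcaaatccatTCTAGAagactgtagggg

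*Dll1* and *Jag2* are ligands that activate Notch on neighbouring cells. *Dll1* (chr17:15504318-15513836, minus strand) had no peak in any library. *Jag2* (chr12:114146801-114167706, minus strand) had 0, 495 and 1011 covered bases in siScramble, 1019, 0 and 353 in siDDX1 and 476, 367 and 1940 in siEXOSC3. The groups overlapped, and the exact permutation p across groups was 0.736. Its 14 peaks, of 6 to 12 fragments, were short, at most 594 bases, and mostly in the first 6 kb of the gene, except 2 peaks in siEXOSC3 3 with summits at +10943 and +12949, both in introns. None covered the start, although the start fragment of *Jag2* was longer than that of 95.7% of genes and its CpG ratio, observed over that predicted from base composition, was 1.11, above 99.3% of genes. *Notch1*, the receptor (chr2:26313423-26372183, minus strand), had no peak in any library over its whole length.

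*Lfng* encodes the Fringe glycosyltransferase that changes which ligands Notch responds to. It lies on chr5:141083295-141091497, plus strand, and had a peak in all 3 siEXOSC3 libraries, with 311, 262 and 880 covered bases, and 0 in the other 6. The siEXOSC3 libraries lay 484 bases above siScramble on average, with a two-sided exact permutation p of 0.1, the smallest possible. *Lfng* entered the test across groups only through the siEXOSC3 libraries. Its exact permutation p of 0.0357 (1 after adjustment) is the value that any gene covered in the 3 libraries of a single group alone gets, so it adds nothing to that pattern. In all, 31 of the 13647 genes (0.227%) were covered in the 3 siEXOSC3 libraries alone.

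The 3 *Lfng* libraries did not share a position. Summits lay at +8857, downstream of the gene, in siEXOSC3 1, at +6452, in an intron, in siEXOSC3 2, and at −492, +2382 and +3210 in siEXOSC3 3. Pileups were 7 and 6 fragments in the first pair and 5, 13 and 6 in siEXOSC3 3, so 4 of 5 peaks had at most 7. With no flank, siEXOSC3 1 had 0 covered bases and the separation from siScramble ended. It also ended with a 5 kb flank, where the siScramble libraries had 0, 328 and 315 covered bases, the siDDX1 libraries 0, 428 and 291 and the siEXOSC3 libraries 311, 923 and 1344. The peak with 13 fragments is the only well-filled one and started at a BsrGI cut. The 150 bases around its summit are shown for that reason, from intron 1 on the plus strand of mm9, chr5:141085602-141085751, with the cut (chr5:141085487-141085516, site in capitals) before them.
Lfng left edge: tgactgtggggcTGTACAaaaaaaccaagc
Lfng strongest summit: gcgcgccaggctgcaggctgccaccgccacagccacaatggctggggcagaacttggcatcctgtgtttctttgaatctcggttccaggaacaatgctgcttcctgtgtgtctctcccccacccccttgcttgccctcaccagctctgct

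**Figure D3:**
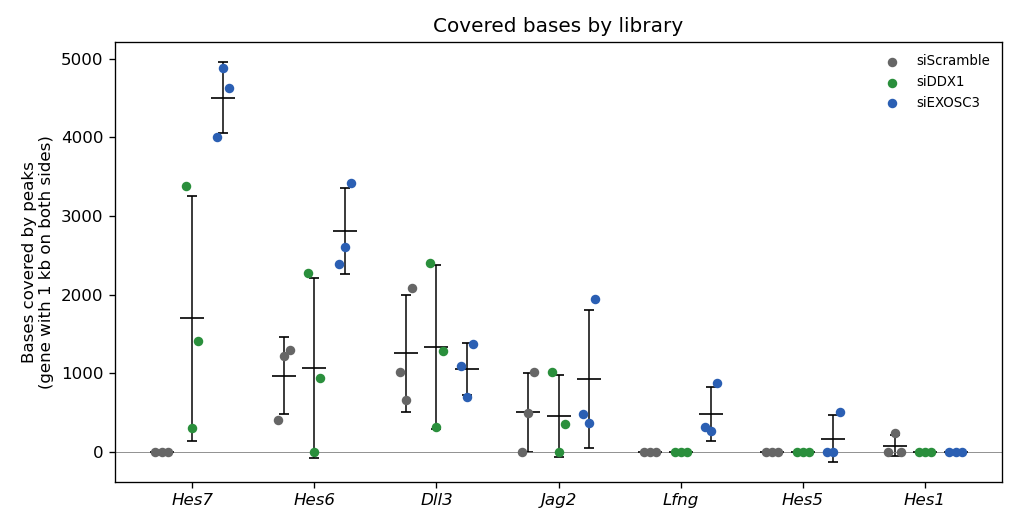
Bases covered by peaks in each untreated library at the 7 genes with any peak (gene bounds with 1 kb on both sides). Points are libraries, coloured by the group in the title, and bars are the mean ± SD (n = 3). The siEXOSC3 points lie above all siScramble points at *Hes7*, *Hes6* and *Lfng*, and overlap them at *Dll3* and *Jag2*.

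The counts over the genes were read against all genes tested. Of the 10 genes, 7 had a covered base in at least 1 untreated library and 1 in all 9, against 49.9% and 26.2% of 22380 protein-coding genes. Of the 9 genes besides *Hes7*, 3 had no peak, so 6 could be tested across the 3 groups. Besides *Lfng*, whose p its pattern fixes, none had an unadjusted p below 0.05, a level that 2.89% of all genes tested reached. After adjustment 0 of the 6 and 0% of all genes tested passed. In the siEXOSC3 against siScramble comparison, 2 of the 6, *Hes6* and *Lfng*, had siEXOSC3 libraries all above siScramble, as 6.11% of the 13647 genes tested did. Of the 6, 0 had them all below, as 3.65% of genes tested did. *Lfng* was among the genes tested only through its siEXOSC3 peaks, so its place in this count follows from that filter. In the siDDX1 against siScramble comparison, 0 of the 6 had groups that did not overlap in either direction, against 0.85% of genes tested above and 1.9% below. Both comparisons share the siScramble libraries. *Hes7*, the gene picked on these calls, was above in both, as 41 genes (0.3%) were, and 12 genes had 0 covered bases in siScramble and some in all 6 other libraries.

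**Figure D4:**
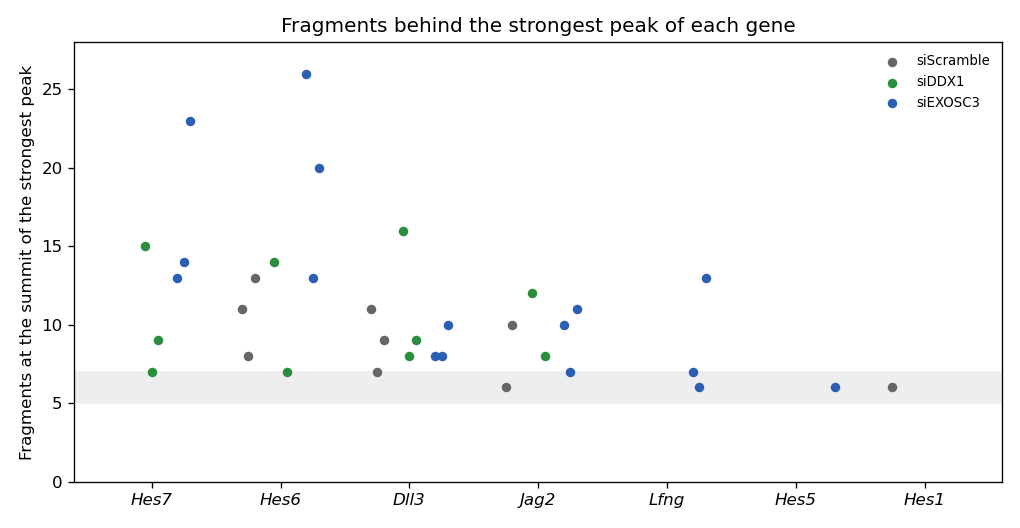
Fragments at the summit of the strongest peak, by fold, in each untreated library with a peak at the gene, coloured by group. The grey band spans the lowest pileup of any called peak in the 9 lists, 5 to 7 fragments. Points above 20 occur at *Hes7* and *Hes6* in siEXOSC3 libraries, and the points of *Hes5* and *Hes1* lie in the band.

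No peak was called within 1 kb of any of the 10 genes after digestion with RNase H, and within 5 kb the RNase H library labelled siScramble had 266 covered bases, at *Lfng*. The 9 untreated libraries had 69 peaks there, 19 in siScramble, 20 in siDDX1 and 30 in siEXOSC3, and the 3 RNase H libraries had 0. The group totals include the 14 peaks of *Hes7*, the gene picked on these calls, none of them in siScramble. The mean difference, RNase H minus untreated within groups, was −1616 covered bases at *Hes6*, with a two-sided exact permutation p of 0.0312 and an adjusted p of 0.0672. At *Dll3* it was −1213 bases, with an exact permutation p of 0.0469 and an adjusted p of 0.092, and for *Jag2* and *Lfng* the exact permutation p was 0.172 and 0.5. None of the 6 genes tested passed after adjustment, against 39.5% of all genes. The smallest p this test can give is 0.0156. Where an untreated library was at 0 like the RNase H library of its group, both tied and the p could not fall that low. Of the 6 genes only *Dll3* had no such library, and the p of 0.0312 was the lowest open to *Hes6*. The count of genes passing therefore cannot be set against 39.5% as a measure of RNase H sensitivity. *Hes7* was at 0 in the RNase H libraries and in the siScramble libraries alike. Of the 69 peaks, 25 had fewer than the 8 fragments that the least of the RNase H peaks held, among them 2 of 14 at *Hes7* and 4 of 5 at *Lfng*. The part of the higher calling level in the loss of these peaks was not tested.

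Beyond the 10 genes, 52 further genes of the pathway were examined, and 42 (of which 22 in all 9) had a peak in at least 1 untreated library, beside the shares of 49.9% and 26.2% of protein-coding genes given above. By role, peaks were called at the nuclear machinery, such as co-activators and co-repressors, with 13 of 14 genes covered in at least 1 library and 10 in all 9. They were called at the proteases that cleave Notch, with 8 of 9 and 4, at genes of endocytosis and turnover, with 10 of 11 and 6, and at glycosyltransferases, with 4 of 4 and 2. Receptors had 2 of 3 covered, ligands 3 of 5 and targets 2 of 6, and none of these was covered in all 9 libraries.

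Of the 42 genes with a peak, 0 had an unadjusted p below 0.05 across the 3 groups by the exact permutation test, and their median p was 0.452, against 0.604 over all genes. These medians are of unlike sets. Of the 42 genes, 22 were covered in all 9 libraries, while the median over all genes takes in those covered in 1 library, whose p is fixed. None had siDDX1 libraries that all lay on 1 side of siScramble. For siEXOSC3, 2 of the 42 lay above and 2 below, near the 6.11% and 3.65% of all genes, so the count is no result about the pathway. They are named here after their values were seen: *Notch4*, a receptor, and *Dtx3*, a ubiquitin ligase of the Deltex family, were above. *Notch4* had 0, 1086 and 684 covered bases in siScramble and 1223, 1235 and 1985 in siEXOSC3. *Dtx3* had 4583, 4739 and 4492 against 5010, 4999 and 4879. *Numb*, an endocytic inhibitor of Notch, and *Snw1*, a nuclear cofactor, were below. *Numb* had 358, 858 and 412 in siScramble and 355, 0 and 243 in siEXOSC3. *Snw1* had 4853, 7266 and 8533 against 2942, 2721 and 4752. After RNase H, 18 of the 42 (42.9%) were lower with an adjusted p below 0.05, against 39.5% of all genes. The ties at 0 described above limit this test here too, and all 18 were covered in all 9 untreated libraries. These shares therefore cannot be set against each other as a measure of RNase H sensitivity. The ligand gene *Dner*, named after its values were seen, was higher, with 2499, 1257 and 1790 covered bases in the RNase H libraries of siScramble, siDDX1 and siEXOSC3 and 0 to 1212 in the untreated libraries.

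The pattern of covered bases over the 9 untreated libraries was most like that of *Hes7* at *Cd164l2* (Pearson r = 0.981), *Arhgef17* (0.976), *Necab2* (0.972), the miRNA gene *AC116595.1* (0.972) and *Fgd2* (0.970), the leading 5 of the 13647 genes. These values are a description over 9 libraries that share their peak caller and differ in depth. *Arhgef17* had 0 covered bases in siScramble, 980, 0 and 0 in siDDX1 and 1015, 1483 and 1267 in siEXOSC3. *Fgd2* was covered in all 9, with 1333, 500 and 813 bases, then 3319, 888 and 1813, then 3481, 3753 and 4770. In each of these 5 genes the library labelled siDDX1 1 had more covered bases than the other siDDX1 libraries, as at *Hes7*. The 5 genes were picked by their r with *Hes7*, so this likeness follows largely from the selection. Among the members, r with *Hes7* was computed for *Hes6* (0.893), *Lfng* (0.710), *Jag2* (0.472) and *Dll3* (0.137) only.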

How the data were processed

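DRIP-seq peak lists of 12 libraries were analysed; the 1 input sample was not analysed here. Per the labels and the study's methods, the authors aligned reads to mm9 with Bowtie2 2.4.4 and called peaks per library with MACS2 2.2.6 against input. The deposited lists give, per peak, the fold enrichment over local background (a linear ratio), the −log10 p- and q-values, a display score and the summit offset, a whole number of bases. Lists began at a −log10 q of 2.00 to 2.02. The display score was left aside. Read counts were not used here.

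Covered bases per gene (GENCODE vM1 bounds with 1 kb on both sides) were computed with pandas 2.3.3, numpy 2.4.6 and scipy 1.17.1 under Python 3.11.15, and drawn with matplotlib 3.10.9. Genes with a covered base in an untreated library (13647) were tested across groups over all 280 splits of 9 libraries into 3 groups of 3 (smallest p 0.00357), for RNase H over 64 assignments within groups, and by pairs over 20. p-values were adjusted over all genes tested by the Benjamini-Hochberg method. Replicates were separate plates of 1 line, so p-values measure the spread between plates. Code was tested on simulated data. Pileups n were solved from fold = (n + 1)/(background + 1) and the Poisson tail, and 99.8% to 100% of the peaks tried gave a whole number within 0.001 of the −log10 p. Same-numbered libraries of different groups did not deviate together (r of −0.203 to 0.159 over 9 pairs, and −0.239 to 0.187 over 18 pairs with other numbers). The members, gene lists and tests were chosen with earlier results of these data known. All 10 members were named; of the further genes, those with p below 0.05 or apart from siScramble in both other groups, which none was; and the 5 genes most like *Hes7*. Sequences were read from the mm9 assembly.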

Additional observations from a re-analysis of the deposited data

How the results depend on the processing

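Peak lists hold called peaks only, and most member peaks rest on 5 to 16 fragments, so a difference between called and not called may be a few fragments. The *Hes7* difference of siDDX1 from siScramble, 1696 bases, ranged from 853.5 to 2396 when 1 library was left out, and that of siEXOSC3, 4506, from 4321 to 4755. Of the 10 genes, *Hes7* alone separated siDDX1 from siScramble (1), and this became 0 with no flank and 0 with peaks of a −log10 q of at least 5. Genes that separated siEXOSC3 from siScramble numbered 3, and 2, *Hes7* and *Hes6*, with no flank, a 5 kb flank, that threshold or equal numbers of peaks. *Hes7* was picked on these calls, so its place in both counts is no result. Besides *Hes7*, the siEXOSC3 count held *Hes6* and *Lfng*, and *Hes6* alone under those settings. The shares of all genes given above are for the main setting only.

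The count of genes other than *Hes7* with p below 0.05 across groups (1, *Lfng*) became 0 with a 5 kb flank, 0 at a −log10 q of at least 5 and 0 with a replicate block, and ranged from 0 to 1 when 1 library was left out. It was 0 without any of siScramble 1, 2 or 3 or siDDX1 3. It was 1 through *Hes6* in place of *Lfng* with no flank, equal numbers of peaks, or without siDDX1 1 or 2. With 1 siScramble or siDDX1 library left out, the *Lfng* p was 0.0714. Its siEXOSC3 difference of 484 bases became 111.7 at a −log10 q of at least 5, 215.3 over equal numbers of peaks and 286.5 without siEXOSC3 3. Genes lower after RNase H (0) became 2 with a 5 kb flank and 1 on log2(covered bases + 100), and ranged from 0 to 2 with 1 library left out, 2 being without siDDX1 2.

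Over all genes, 394 had p below 0.05 across groups, 655 over equal numbers of peaks, 63 as called or not, 67 with the replicate block, 841 without siScramble 1 and 1103 without siDDX1 1. In the rank test 429 genes did so, 195 with the replicate block, 870 without siDDX1 1, 281 without siEXOSC3 1 and 263 without siEXOSC3 2. After adjustment 0 genes passed in the covered-base test under these settings. The replicate block gave p = 0.167 for *Hes6* and 0.111 for *Lfng* by exact permutation within replicate numbers. The labels do not say whether these numbers pair the samples, and same-numbered libraries did not deviate together. The *Dll3* rank p by exact permutation stayed above 0.05 under every alternative in which it could be computed, between 0.0714 and 0.879. It could not be computed at a −log10 q of at least 5 or over equal numbers of peaks. There siScramble 2 and siDDX1 1 had 0 covered bases at *Dll3*, and at that threshold siDDX1 2 did as well.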
